A study of Mus musculus with 6 samples.

Results

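The genes described here are 9 endothelial genes of blood coagulation and fibrinolysis, Procr, Thbd, F3, Tfpi, Vwf, Plat, Plau, Plaur and F2r, taken by symbol from the 54429 genes of the deposited count table. All 9 were in the table and all 9 had enough counts to be tested. They were measured by ribodepleted RNA-seq in adult C57BL/6 wild-type mouse primary aortic endothelial cells (EC), with 3 libraries from cells transduced with a Meis1-overexpressing vector (Meis1-OE) and 3 from cells transduced with the control vector (YFP-CTRL). In both groups the purchased EC were plated at 100000 cells per well, kept with the lentivirus for 48 h and, at 72 h, sorted for the YFP+CD31+VEC+ population. They were then grown to confluency before 300 to 400 ng of RNA from 300000 cells was taken for sequencing. All cells were thus cultured, transduced and sorted for CD31 and VE-cadherin (VEC), and the growth medium contained heparin. The comparison asks how these genes differed between EC with and without the introduced Meis1.

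Healthy endothelium keeps blood fluid. Thrombomodulin (Thbd) binds thrombin at the cell surface and, with the endothelial protein C receptor (Procr), turns it toward activating the anticoagulant protein C, while tissue factor pathway inhibitor (Tfpi) blocks the start of coagulation by tissue factor (F3). Von Willebrand factor (Vwf) is stored in the Weibel-Palade bodies of EC and captures platelets when released, and thrombin signals to EC through the protease-activated receptor PAR1 (F2r). Clots are dissolved by plasmin, which is made from plasminogen by tissue-type (Plat) and urokinase-type (Plau) plasminogen activators, the latter bound at the cell surface by its receptor (Plaur). Procr (CD201) is also used as a marker of hemogenic and hematopoietic stem cells.

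Values are CPM, counts scaled to a common library size with TMM factors, and libraries are named by the letter of their column. Where 3 values are given for a group, they stand in the order A, B, C. Adjusted p-values are those of the quasi-likelihood test of edgeR, adjusted over all tested genes after Benjamini and Hochberg, unless another test is named. Total counts ran from 34176592 to 47956569 per library. Meis1 was counted 135325 to 157828 times in the Meis1-OE libraries and 39 to 85 times in the YFP-CTRL libraries, and reads of the vector and of the gene itself were not separated. All 10 endothelial marker genes examined were counted in every library, with a summed level of 3561 to 4447 CPM in Meis1-OE EC and 4537 to 6334 CPM in YFP-CTRL EC. Of 8 macrophage markers, C1qa, C1qb, Tyrobp and Adgre1 had no count in any library, and the list, mostly Cd68, summed to 69.8 to 106 CPM in Meis1-OE EC and 65.1 to 140.1 CPM in YFP-CTRL EC. The fibroblast and smooth muscle list, mostly Pdgfra and Acta2, summed to 13.2 to 15.6 CPM in Meis1-OE EC against 34.0 to 51.9 CPM in YFP-CTRL EC. The part of these marker levels in the results below was not tested. Control C stood apart from the other controls. Its proliferation score, the mean log2(CPM + 1) of 15 S and G2/M phase genes, was 6.39, against 4.07 and 5.14 in the controls A and B and 6.41, 6.41 and 6.47 with Meis1-OE. The part of proliferation in the results below was not tested beyond a fit with that score as covariate, whose values are given below for each member. The score hardly varied among the Meis1-OE libraries, so the slope of that fit rests mainly on the 3 controls. It therefore cannot separate proliferation from group.

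Promoter sequences were found for 5 of the 9 members in RefSeq (build GRCm38.p6, 250 bases before to 50 after the start site), and 4 of them are shown because they share a short motif. None was found for Thbd, Vwf, Plat or Plau. The pattern TGANTCA, with N for any base, was searched as a loose form of the AP-1 site and reads the same on both strands. It occurred in the promoters of Procr, F3, Plaur and F2r and in neither promoter of Tfpi. That is 4 of the 6 promoters of these 5 members, and 7.81% of all 32851 promoters of the same length held it. The motif TGACAG, the core letters bound by MEIS proteins, was searched on both strands and occurred only in the second promoter of Tfpi among these members, and in 19.2% of all promoters. A match is a description of the letters and not evidence of binding. The bases before the start site follow, 5′ to 3′ on the strand of the gene, with each TGANTCA match in capitals.
Procr (chr2:155750967-155751124, plus strand): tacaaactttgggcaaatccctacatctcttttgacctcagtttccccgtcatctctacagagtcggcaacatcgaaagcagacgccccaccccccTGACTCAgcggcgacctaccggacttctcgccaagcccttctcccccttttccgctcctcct
F3 (chr3:121723287-121723536, plus strand): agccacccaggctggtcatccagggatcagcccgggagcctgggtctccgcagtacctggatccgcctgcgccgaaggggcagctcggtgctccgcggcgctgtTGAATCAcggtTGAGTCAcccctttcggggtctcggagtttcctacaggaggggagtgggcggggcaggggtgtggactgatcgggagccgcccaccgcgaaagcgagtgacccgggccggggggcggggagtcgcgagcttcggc
Plaur (chr7:24462233-24462482, plus strand): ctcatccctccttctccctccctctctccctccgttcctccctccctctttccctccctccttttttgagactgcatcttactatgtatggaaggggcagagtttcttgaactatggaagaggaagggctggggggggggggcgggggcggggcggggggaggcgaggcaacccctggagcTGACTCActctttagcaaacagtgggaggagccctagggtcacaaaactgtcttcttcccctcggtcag
F2r (chr13:95618467-95618716, minus strand): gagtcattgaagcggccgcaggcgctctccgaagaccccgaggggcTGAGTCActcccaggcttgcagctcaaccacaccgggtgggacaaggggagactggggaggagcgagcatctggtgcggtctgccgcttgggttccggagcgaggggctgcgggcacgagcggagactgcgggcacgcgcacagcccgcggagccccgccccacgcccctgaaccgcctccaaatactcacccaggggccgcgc
Counted from the start site, the match began at -154 in Procr, at -146 and -135 in F3, at -69 in Plaur and at -204 in F2r. The middle base was A in the F3 match at -146 and C or G in the others. The Procr sequence stops at the earliest annotated start of the gene. Its -154 is counted from a later start site, and the bases between, up to position 155751216, are not shown. The Plaur window lies inside the annotated span of the gene, downstream of an earlier start. Of these 4 genes, Procr and Plaur were lower and F2r was higher in Meis1-OE EC, and F3 did not pass the test, as described next.

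Among the 9 members, Vwf and F2r were higher and Procr and Plaur were lower in Meis1-OE EC. Vwf rose 8.70-fold and F2r rose 5.42-fold, while Procr was 2.50-fold lower and Plaur 2.19-fold lower. The other 5 members, Thbd, F3, Tfpi, Plat and Plau, did not pass an adjusted p under 0.05 in edgeR's quasi-likelihood test across the 16065 tested genes. The same threshold was passed by 6.87% of all tested genes, with 4.14% higher and 2.73% lower (665 and 438 genes, or 1048 and 179 when libraries were scaled by their totals alone). The same 4 members were those whose 3 Meis1-OE libraries did not overlap the 3 YFP-CTRL libraries, as was the case for 33.1% of all tested genes. The median log2 fold change was -0.18 over the members and 0.01 over all tested genes. In bulk RNA, fewer cells expressing a gene and less RNA per cell cannot be told apart.

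**Figure D1:**
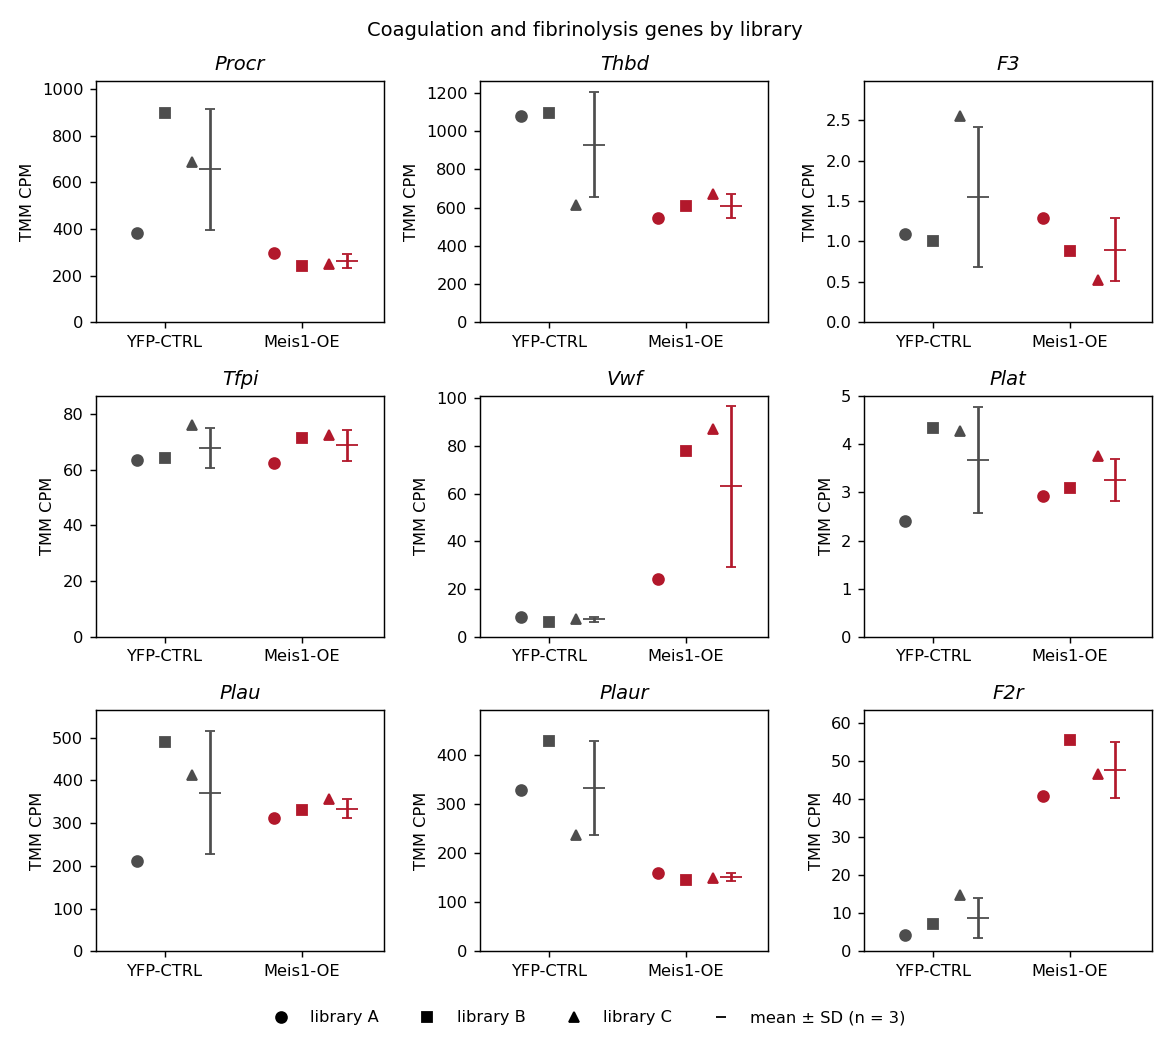
Level of each of the 9 genes in TMM CPM (linear axes from 0) in every library, with symbols for libraries A, B and C, and the mean ± SD of each group beside them. Vwf and F2r lie higher and Procr and Plaur lower in all 3 Meis1-OE libraries, with no overlap between the groups.

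The protein C system was measured through its 2 endothelial receptors. Procr (chr2:155751125-155755478) was at 296, 240.2 and 251 CPM in Meis1-OE, against 382, 899 and 689 CPM in YFP-CTRL. Every Meis1-OE library lay below every control, although control A was much nearer to them than libraries B and C were. Procr fell by 1.32 on the log2 scale (standard error, SE, 0.29, edgeR adjusted p = 0.0416), and its log2 fold change was -1.71 with the score as covariate (edgeR adjusted p = 0.0345). Thbd (chr2:148404471-148408188), which binds thrombin, was at 543, 608 and 671 CPM in Meis1-OE, against 1077, 1097 and 613 CPM in YFP-CTRL. Control C lay within the range of the Meis1-OE libraries, so the groups overlapped. The log2 fold change of Thbd was -0.61 (SE 0.23, edgeR adjusted p = 0.146), -0.85 without control C (edgeR adjusted p = 0.00251, in a fit where 31.7% of all tested genes passed) and -0.14 with the score as covariate (edgeR adjusted p = 0.769). Of the 2 receptors, then, Procr passed the test and Thbd, in the fits made here, passed only when control C was left out.

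Tissue factor was close to the lower end of what was counted in these cells. F3 (chr3:121723537-121735052) had 59, 40 and 24 counts in Meis1-OE, against 37, 41 and 116 counts in YFP-CTRL. Without TMM scaling this was 0.527 CPM of all counts in Meis1-OE library C (95% Wilson interval 0.354 to 0.784) and 2.42 CPM in control C (2.02 to 2.90), intervals that cover counting error only. Control C was high and the other 5 libraries overlapped. The log2 fold change of F3 was -0.79 with a SE of 0.48 (edgeR adjusted p = 0.335), -0.23 without control C and -1.35 with the score as covariate (edgeR adjusted p = 0.175). Tfpi (chr2:84432855-84476775), the inhibitor of tissue factor, was at 62.5, 71.4 and 72.6 CPM in Meis1-OE, against 63.5, 64.2 and 76.3 CPM in YFP-CTRL EC. The groups covered nearly the same range, with a log2 fold change of 0.02 (SE 0.12, edgeR adjusted p = 0.943), or -0.12 with the score as covariate.

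Vwf, which encodes the platelet-binding protein of Weibel-Palade bodies, had the largest fold change of the 9 members. Vwf (chr6:125552948-125686679) was at 24.3, 77.6 and 87.1 CPM in Meis1-OE, against 8.13, 6.23 and 7.39 CPM in YFP-CTRL. The controls were close together and the Meis1-OE libraries were not, with library A well below B and C while still above every control. Vwf had a log2 fold change of 3.12 (SE 0.46, edgeR adjusted p = 0.0120), 3.51 without Meis1-OE library A (edgeR adjusted p = 0.00174) and 3.16 with the score as covariate (edgeR adjusted p = 0.0498). The deposited counts of Vwf were not whole numbers in any of the 6 libraries, and were off by more than 0.1 in 4 of them, so its counts are estimates in which reads may be shared with other features.

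F2r, the thrombin receptor PAR1, was likewise higher in every Meis1-OE library. F2r (chr13:95601780-95618466) was at 40.8, 55.4 and 46.6 CPM in Meis1-OE, against 4.27, 7.28 and 14.7 CPM in YFP-CTRL. The highest control, library C, stayed well below the lowest Meis1-OE library. The log2 fold change was 2.44 (SE 0.42, edgeR adjusted p = 0.0201), and 1.68 with the score as covariate (edgeR adjusted p = 0.00820). Without control C it was 3.02.

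In the plasminogen system the receptor fell while neither activator passed the test. Plaur (chr7:24460937-24475970), the urokinase receptor, was at 159.9, 145.6 and 148.9 CPM in Meis1-OE, against 330, 430 and 238 CPM in YFP-CTRL. The Meis1-OE libraries were tightly grouped below all of the controls. Its log2 fold change was -1.13 (SE 0.21, edgeR adjusted p = 0.0242) and -0.85 with the score as covariate (edgeR adjusted p = 0.0957), which no longer passed the threshold. Plau (chr14:20836662-20843388), which encodes urokinase, was at 312, 332 and 357 CPM in Meis1-OE, against 211, 489 and 413 CPM in YFP-CTRL EC. The Meis1-OE values lay inside the range of the controls, and the log2 fold change of Plau was -0.15 (SE 0.28, edgeR adjusted p = 0.770), or -0.60 with the score as covariate (edgeR adjusted p = 0.315). Plat (chr8:22757722-22782848), the tissue-type activator, was counted only 134, 140 and 174 times in Meis1-OE EC and 82, 177 and 194 times in YFP-CTRL EC. Plat had a log2 fold change of -0.18 (SE 0.27, edgeR adjusted p = 0.718), or -0.56 with the score as covariate (edgeR adjusted p = 0.318), and the groups overlapped.

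Which of the 4 members were called depended on the libraries that entered. All 4 passed without control A, in a fit that called 6.36% of all tested genes, and without control C, the library that stood apart, in a fit that called 31.7%. Without control C the log2 fold changes were -1.31 for Procr, -1.34 for Plaur and 3.12 for Vwf, and -0.07, -0.09 and 0.10 for Plat, Plau and Tfpi, which did not pass. None of the 4 passed without Meis1-OE library B (edgeR adjusted p 0.191 for Procr, 0.136 for Plaur, 0.0626 for Vwf and 0.0933 for F2r), without Meis1-OE library C (0.1798, 0.126, 0.0555 and 0.0832) or without control B (0.130, 0.0686, 0.0753 and 0.105). These 3 fits called 0.798%, 0.875% and 1.64% of all tested genes. Without Meis1-OE library A, where 2.43% of all tested genes were called, only Vwf passed (edgeR adjusted p 0.00174), with 0.121 for Procr, 0.0902 for Plaur and 0.0637 for F2r. In these 6 fits the log2 fold change ran from -1.61 to -1.02 for Procr, from -1.34 to -0.90 for Plaur, from 2.82 to 3.51 for Vwf and from 2.10 to 3.02 for F2r, so that no sign changed. DESeq2's Wald test called the same 4 members, at adjusted p-values of 0.000414 for Procr, 9.84e-05 for Plaur, 3.97e-12 for Vwf and 5.28e-08 for F2r, where 12.4% of the genes with an adjusted p were called.

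**Figure D2:**
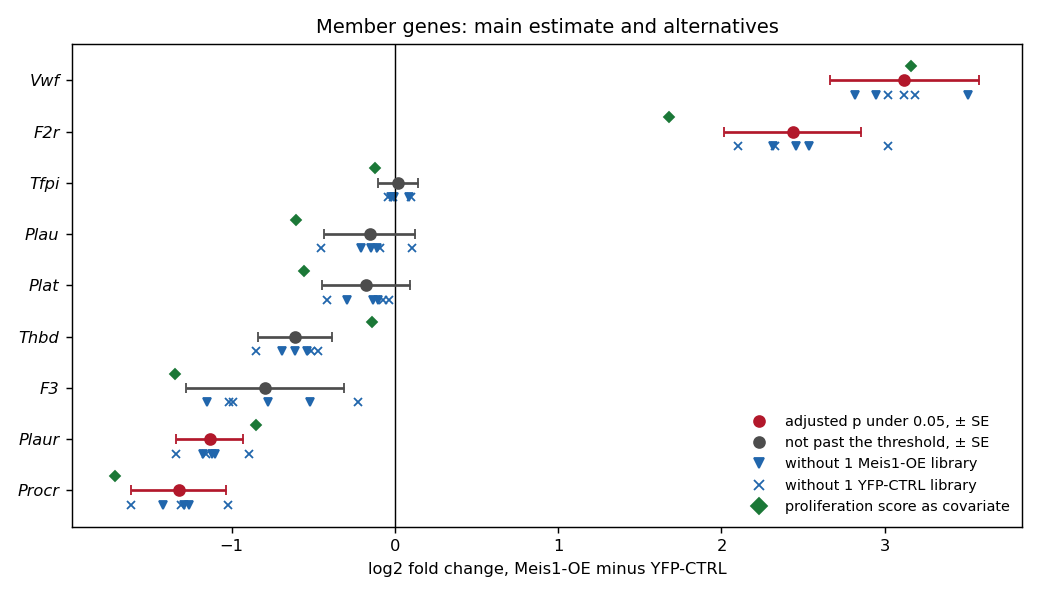
Log2 fold change of each gene (Meis1-OE minus YFP-CTRL) from edgeR, with its SE, red where the adjusted p was under 0.05. Blue symbols give the value with each library left out and green diamonds the value with the proliferation score as covariate; the signs of Vwf, F2r, Plaur and Procr are the same under each of these, while those of Tfpi and Plau are not.

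Levels of different genes were compared per kilobase of exon, using lengths from an NCBIM37 annotation matched by symbol. Each length was the union of all annotated exons of the gene. For Vwf this was 16064 bases, the longest of the 9 members. A shorter length, as of a single transcript, would raise its level per kilobase, and its rank under other lengths was not tested. In YFP-CTRL EC the order from the top was Procr at 323 ± 128 CPM per kilobase, Thbd at 249.8 ± 73.7, Plaur at 238 ± 68.8 and Plau at 158 ± 61.2 (SD, n = 3 each), and each of these overlapped the next in its library values. Tfpi at 12.4 ± 1.32 CPM per kilobase was far below them. F2r at 2.65 ± 1.63, Plat at 1.45 ± 0.431 and F3 at 0.826 ± 0.464 CPM per kilobase followed and overlapped their neighbours, and Vwf at 0.451 ± 0.0596 was lowest, with no overlap with F3. In Meis1-OE EC Thbd was first at 163 ± 17.3 CPM per kilobase, followed by Plau at 142 ± 9.56 and Procr at 129 ± 14.5, and Thbd overlapped Plau as Plau did Procr. Plaur followed at 108 ± 5.37 CPM per kilobase, without overlap. F2r at 14.4 ± 2.22 CPM per kilobase overlapped Tfpi at 12.6 ± 1.01, and Vwf at 3.92 ± 2.11, Plat at 1.29 ± 0.174 and F3 at 0.478 ± 0.206 were lower without overlap. With these lengths Vwf thus ranked last of the 9 in the controls and seventh in Meis1-OE EC.

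For each member the 3 genes whose log2 CPM followed it most closely over the 6 libraries were taken among genes with a mean of at least 5 CPM, as a description, since all of them share the same libraries and groups. Procr was followed by Sema4b, Dmwd and Mmp3 (Pearson's r 0.999, 0.994 and 0.993), and Plaur by Rassf1, Ipmk and Zfp346 (0.999, 0.999 and 0.997). Vwf was followed by Scd2, Tmem205 and Serinc5 (0.998, 0.998 and 0.996), and F2r by Gcdh, Pcolce2 and Camk4 (0.999, 0.998 and 0.998). The nearest genes to Thbd were Tpd52l2, Ppp3ca and Anapc16 (all r of 0.999), those to Plau were Fggy, Gngt2 and Iars2 (0.997, 0.996 and 0.993), and those to Plat were Tnfrsf1a, Fkbp8 and Tex264 (0.997, 0.997 and 0.992). Tfpi was followed by Pdia3, Mrpl16 and Kdelr2 (0.990, 0.979 and 0.973) and F3 by Hsp90aa1, Snhg5 and Hoxb6 (0.960, 0.959 and 0.958). Among these 27 neighbours, none was itself a member, though F3 and Plat, with means below 5 CPM, could not be taken.

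The rest of the system was taken from 7 lists by role with 69 genes in all, of which 40 could be tested. Of these 40, 4 were higher, Lrp1, Rab27a and Rab3d among them, and 2 were lower (Nt5e and Gna12) in Meis1-OE EC, beside 6.87% of all tested genes in either direction. On library totals alone, 7 were higher and 1 was lower. None of Lrp1, Rab27a, Rab3d and Gna12 passed when Meis1-OE library A, B or C or control B was left out, with edgeR adjusted p from 0.0531 to 0.0976 for Lrp1, 0.0717 to 0.114 for Rab27a, 0.0826 to 0.185 for Rab3d and 0.118 to 0.232 for Gna12. Gna12 did not pass without control A either (edgeR adjusted p = 0.0672). The median log2 fold change of the 40 genes was 0.16, against 0.01 over all tested genes. Another 24 genes of the lists had at most 3 counts in every library. These included F7, F9, F10, F11 and F12, the 3 fibrinogen chains Fga, Fgb and Fgg, plasminogen (Plg), protein C (Proc) and the inhibitor Tfpi2, and the levels of these genes were not detectable at this depth.

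Among the other genes of the plasminogen system, 2 of 8 tested genes rose and none fell, beside 4.14% higher and 2.73% lower over all tested genes. Lrp1, an endocytic receptor that clears plasminogen activators from the cell surface, was at 429 ± 11.6 CPM (SD, n = 3) against 244 ± 33.2 CPM in the controls and rose by 0.81 on the log2 scale (edgeR adjusted p = 0.0145). Anxa2 and S100a10 form a cell-surface receptor for plasminogen and its tissue-type activator. Anxa2, the most abundant of the list per kilobase, had a log2 fold change of -0.04 (edgeR adjusted p = 0.831). S100a10 had one of 0.45 that did not pass (edgeR adjusted p = 0.0525). Its groups did not overlap, as was the case for 33.1% of all tested genes. S100a10 passed with DESeq2 (adjusted p = 0.0377), on library totals (edgeR adjusted p = 0.0160), with at least 10 counts in every library and without control C (edgeR adjusted p = 0.0332), and not with the score as covariate (edgeR adjusted p = 0.130). With the score as covariate, Lrp1 passed (edgeR adjusted p = 0.0384).

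On the von Willebrand factor side, 2 of 10 tested genes of storage, release and cleavage rose and none fell. Over all tested genes, 4.14% were higher and 2.73% lower. Rab27a and Rab3d encode small GTPases found on Weibel-Palade bodies. Rab27a was at 14.4, 17.0 and 19.1 CPM in Meis1-OE, against 2.27, 3.92 and 6.62 CPM in YFP-CTRL, a log2 fold change of 1.97 (SE 0.36, edgeR adjusted p = 0.0242). Rab3d was at 4.99, 7.58 and 6.91 CPM against 1.35, 2.06 and 3.24 CPM, a log2 fold change of 1.54 (SE 0.34, edgeR adjusted p = 0.0413). Neither gene overlapped between the groups, as was the case for 33.1% of all tested genes. With the score as covariate the adjusted p was 0.0185 for Rab27a and 0.101 for Rab3d from edgeR. P-selectin (Selp) and Cd63, 2 further proteins of these granules, had log2 fold changes of -0.20 and -0.15 (edgeR adjusted p = 0.405 and 0.550), and Cd63 was the most abundant gene of the list per kilobase. The cleaving protease Adamts13 had at most 3 counts in any library.

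Of the genes around the thrombin receptor, 1 of 6 tested was lower and none was higher, beside 2.73% and 4.14% of all tested genes. Gna12, a G protein alpha subunit through which PAR1 signals and the most abundant of the list per kilobase, was at 173, 168 and 194 CPM in Meis1-OE, against 268, 324 and 235 CPM in YFP-CTRL EC, a log2 fold change of -0.63 (edgeR adjusted p = 0.0459). It did not pass on library totals without TMM factors (-0.49, edgeR adjusted p = 0.0667), nor with the proliferation score (0.150). F2rl3, which encodes the second thrombin receptor PAR4, had a mean of 53.6 ± 10.6 CPM with Meis1-OE against 34.9 ± 19.4 CPM in the controls (SD over 3 libraries), with an adjusted p of 0.366 from edgeR. F2rl1 and F2rl2 were not tested, with 4 counts or fewer per library. Among receptors of this family, F2r was thus the only one of the 2 tested that passed the threshold, and the difference between F2r and F2rl3 was not tested.

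The surface enzymes that break down extracellular nucleotides were represented by 2 genes. Nt5e (CD73), which makes adenosine from AMP, was at 0.897, 0.463 and 0.691 CPM in Meis1-OE, against 6.95, 6.40 and 2.75 CPM in YFP-CTRL. These rest on 41, 21 and 32 counts against 236, 261 and 125 counts. The log2 fold change was -2.96, or 7.80-fold lower (SE 0.43, edgeR adjusted p = 0.0116). It passed with the covariate (edgeR adjusted p = 0.0269) and not without Meis1-OE library B (0.0722), Meis1-OE library C (0.0694) or control B (0.0621). Entpd1 (CD39), which makes AMP from ATP and ADP, had a log2 fold change of 0.42 (SE 0.47, edgeR adjusted p = 0.609).

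In the 3 remaining lists no gene passed in either direction, in 14 tested genes, beside 6.87% of all tested genes. At an unadjusted p under 0.05 from edgeR, 0 of 4 coagulation factor genes, 2 of 4 natural anticoagulants and 3 of 6 genes of the vitamin K cycle and phosphatidylserine exposure passed, where 26.2% of all tested genes did. DESeq2 called 1 of these 14, Plscr1, beside 12.4% of the genes with an adjusted p, and Ggcx passed on library totals (edgeR adjusted p = 0.0470). Without control C, 9 of the 14 passed, in the fit that called 31.7% of all tested genes. Factor VIII (F8), made by EC, had a mean of 12.3 ± 3.78 CPM with Meis1-OE against 12.6 ± 8.72 CPM in the controls (SD over 3 libraries). Hs3st1, an enzyme that builds the antithrombin-binding form of heparan sulfate, was higher in all 3 Meis1-OE libraries. Its groups did not overlap, as was the case for 33.1% of all tested genes. The log2 fold change of Hs3st1 was 1.52, which did not pass (SE 0.62, edgeR adjusted p = 0.177), and 2.76 without control C (edgeR adjusted p = 0.00146). The most abundant genes of these lists per kilobase were Mcfd2, Anxa5 and Ano6, with log2 fold changes of -0.16, -0.28 and -0.44 (edgeR adjusted p = 0.613, 0.194 and 0.146), and these are among the 9 that passed without control C.

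**Figure D3:**
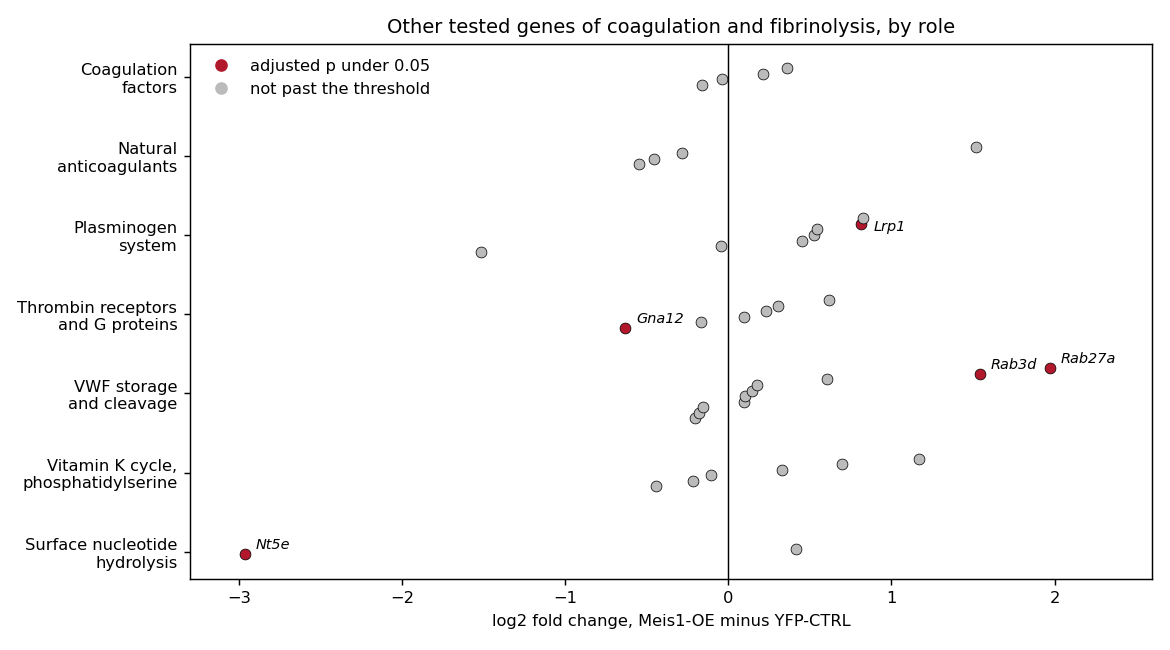
Log2 fold change (Meis1-OE minus YFP-CTRL) of tested genes of the wider system, grouped by role, with genes past an adjusted p of 0.05 in red and named. Lrp1, Rab3d and Rab27a lie to the right of 0 and Nt5e and Gna12 to the left.

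Ratios between 2 genes within a library do not depend on the scaling of libraries, and pairs of members were compared by exact two-sided permutation tests, for which 3 libraries against 3 allow no p below 0.1. Adjusted p-values are over the 5 pairs tested, of which 3 are given. The ratio of Plau to Plaur counts was 1.95, 2.28 and 2.40 in Meis1-OE, against 0.641, 1.14 and 1.74 in YFP-CTRL. It did not overlap between the groups and was 2.03-fold higher in Meis1-OE EC (exact p = 0.1, adjusted p = 0.333). Thbd to Procr ran from 1.84 to 2.68 in Meis1-OE EC and from 0.889 to 2.82 in YFP-CTRL EC (exact p = 0.4, adjusted p = 0.4). F3 to Tfpi ran from 0.00713 to 0.0207 and from 0.0157 to 0.0335 (exact p = 0.3, adjusted p = 0.375).

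**Figure D4:**
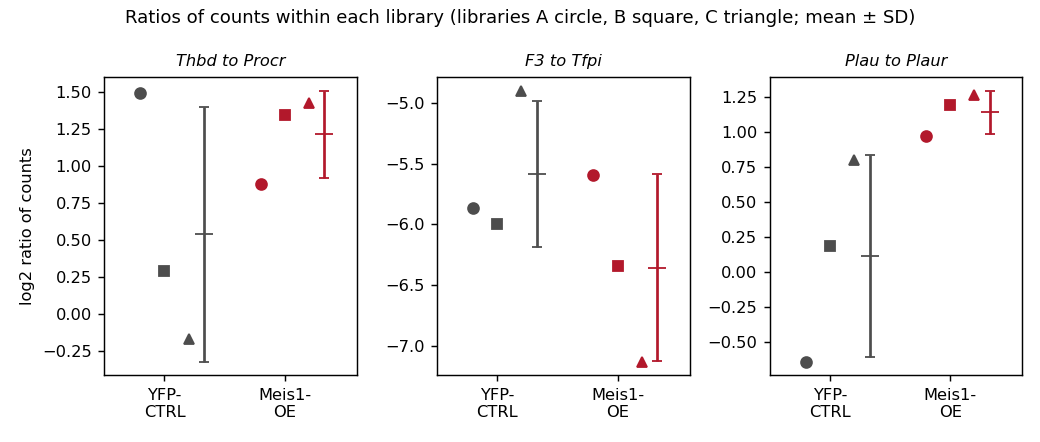
Log2 ratio of counts of 3 gene pairs in every library, with the mean ± SD of each group. Plau to Plaur is the only one of the 3 pairs in which the 3 Meis1-OE libraries do not overlap the 3 YFP-CTRL libraries.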

How the data were processed

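RNA-seq covered 6 libraries of adult mouse aortic EC, 3 Meis1-OE and 3 YFP-CTRL, from independent replicates per the study's methods. The authors deposited 1 table of estimated counts for all libraries, without normalization. The build was mm10 per the submitters' processing notes, and the aligner, the counting tool, the annotation and the use of strand are not given in the sources used here. Column letters could not be matched to the replicate numbers of the labels. Counts were rounded to whole numbers. Without molecular identifiers, intervals and floors (3 counts) cover counting error only.

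Counts were tested in R 4.3.3 with edgeR 4.0.16 (filterByExpr, 16065 genes kept, TMM, quasi-likelihood F test) and Benjamini-Hochberg adjustment over all tested genes, at 0.05. Standard errors were derived from the F statistic. The alternatives were DESeq2 1.42.0 (the study used DESeq2 in another version), other scalings, filters, a robust fit, each library left out, a proliferation covariate and a replicate block. The scripts were tested on simulated data, drawn gene by gene without a shift shared by many genes such as that of control C. There edgeR called 31% of the 2-fold and 85% of the 4-fold changes, with 9 false calls among 125. A gene that did not pass can therefore still differ between the groups.

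The 9 members, the lists, the tests and the covariate were chosen with earlier results of these data known. The genes named were the members, Meis1, the genes of each list past the threshold (at most 6), the most abundant gene of each list per kilobase, and the 3 closest genes to each member with predicted genes left out. Other genes were named after their values were seen, as members of the fixed lists. Figures were drawn with matplotlib 3.10.9. Results for some genes of the lists are not reported here.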

Additional observations from a re-analysis of the deposited data

How the results depend on the processing

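With each library left out in turn, between 115 and 2717 genes were higher and between 16 and 2498 lower (665 and 438 with all libraries), between 0 and 2 members were higher and between 0 and 3 lower (Thbd was the third, without control C) (2 and 2 with all), and between 0 and 13 genes of the role lists were higher and between 0 and 8 lower (4 and 2 with all). The counts of higher and lower genes were 1048 and 179 on library totals and 1128 and 1115 with DESeq2, and 399 were higher with the proliferation score. With that score 1 member was lower, and 2 role-list genes were higher and 1 lower. On library totals 7 role-list genes were higher and 1 lower, and without a filter on low counts 1 was lower. Library totals put the median over tested genes at 0.15 on the log2 scale, and TMM at 0.01. The cause of these shifts was not tested.

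With the column letter as a replicate block, 189 genes, 1 member (Plaur) and 1 role-list gene were lower, and Procr did not pass (adjusted p = 0.0856 from edgeR). Nothing states that the letters pair the libraries. Deviations from the group means correlated at 0.245, 0.190 and 0.0809 between libraries of the same letter, and Meis1-OE library C correlated more with control B (0.249).

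DESeq2's size factors, the robust fit and at least 10 counts in every library kept the same 4 members past the threshold, as did library totals and no filter. The log2 fold change of Tfpi, 0.02 with all libraries, was -0.12 with the proliferation score and ran from -0.0416 to 0.0971 with a library left out (below 0 without Meis1-OE B, Meis1-OE C, control A or control B). That of Plau, -0.15, was 0.00104 on library totals and ran from -0.45 (without control A) to 0.10 (without control B). None of these passed the threshold. Ratios within libraries kept their sign with each library left out. The low counts of F3 and Plat limit what could be detected for both.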

Other observations

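Among the genes taken to check cell identity, Gp9, Lyve1, Cldn5 and Tek passed the test, which 6.87% of all tested genes passed. Gp9, a platelet membrane glycoprotein, was counted 35, 46 and 54 times in Meis1-OE, against 0, 2 and 8 times in YFP-CTRL, a log2 fold change of 3.56 (standard error 0.69, edgeR adjusted p = 0.0290). The other tested platelet markers, Pf4 and Itga2b, had log2 fold changes of -0.35 and -0.14 (edgeR adjusted p = 0.728 and 0.839), and Ppbp and Gp1bb had at most 5 counts in any library. Lyve1, a hyaluronan receptor of lymphatic and some other EC, fell from 284 ± 157 to 79.4 ± 4.18 CPM (SD, n = 3 each). Its log2 fold change was -1.84 (edgeR adjusted p = 0.0301). The lymphatic markers Prox1 and Pdpn had at most 2 counts in any library. Flt4, the other lymphatic marker examined, was counted between 1708 and 6867 times per library. The groups overlapped for Flt4, with a log2 fold change of 0.05 that did not pass (edgeR adjusted p = 0.948). Cldn5, an endothelial tight junction gene, rose from 58.3 ± 28.5 to 204 ± 41.2 CPM (SD, n = 3 each; log2 fold change 1.81, edgeR adjusted p = 0.0398). Tek, the receptor of angiopoietins, fell from a mean of 78.2 to 45.5 CPM (log2 fold change -0.78, standard error 0.16, edgeR adjusted p = 0.0351). Kdr and Cdh5, which encodes VEC, were lower in all 3 Meis1-OE libraries but did not pass (log2 fold change -1.23 and -0.70, edgeR adjusted p = 0.0504 and 0.0535). Their groups did not overlap, as was the case for 33.1% of all tested genes. DESeq2 called both genes (adjusted p = 0.00134 and 0.00950), beside 12.4% of the genes with an adjusted p. Of the 10 endothelial markers, 5 had a log2 fold change above 0 and 5 below. Gp9, Cldn5 and Tek did not pass when Meis1-OE library A, B or C or control B was left out (edgeR adjusted p up to 0.135, 0.160 and 0.173), nor did Lyve1 without Meis1-OE A, B or C (up to 0.149). With the proliferation score as covariate Tek passed (edgeR adjusted p = 0.0464), while Gp9, Cldn5 and Lyve1 did not, at log2 fold changes of 2.30, 1.09 and -1.51 (edgeR adjusted p = 0.0663, 0.0980 and 0.126).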
